A study of Mus musculus with 16 samples.

Results

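The 10 genes described here encode the constant regions of the T cell receptor chains (Trdc for delta, Trac for alpha, Trbc1 and Trbc2 for beta), the CD3 subunits that carry the receptor to the cell surface and signal from it (Cd3d, Cd3e, Cd3g and Cd247), and the co-receptors Cd4 and Cd8a. They were taken by symbol, and all 10 were found among 55359 gene IDs and were among the 17531 genes tested. They were measured by poly(A) RNA-seq of dorsal skin, taken whole, from male mice 8 weeks old whose hair follicles are labelled as resting (telogen). The 4 groups of 4 libraries each were Tnfrsf1a/b KO skin after 3xUVB (KO UVB), WT skin after 3xUVB (WT UVB), Tnfrsf1a/b KO skin without UVB (KO control) and WT skin without UVB (WT control). The KO mice are double knockouts of the 2 receptors for tumour necrosis factor. The labels give no UVB dose, interval or harvest time, no strain, and no statement that each library came from a separate animal, so a p-value here measures the spread between libraries.

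Every alpha-beta or gamma-delta T cell receptor reaches the surface only with chains of CD3. CD3 transcripts thus come from both kinds of T cell, and Trdc or Trac tells them apart. In mice the epidermis holds a resident population of gamma-delta T cells, the dendritic epidermal T cells, whose receptors pair the variable segments encoded by Tcrg-V5 and Trdv4. The dermis holds other gamma-delta T cells as well as CD4 helper, regulatory and CD8 alpha-beta T cells.

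Depth was 15644375 to 23200649 reads in genes per library, and levels are given as CPM, reads of a gene scaled to library size with TMM factors. A fold change is a log2 value ± SE from edgeR, called where the adjusted p over all 17531 genes was under 0.05. The KO libraries still held reads of both deleted genes, at a lower level than WT: Tnfrsf1a averaged 85.9 ± 5.42 CPM in KO control and 143 ± 6.67 CPM in WT control (SD, n = 4 each; -0.74 ± 0.07, adjusted p = 5.43e-05), and Tnfrsf1b 20.8 ± 4.17 CPM and 57.8 ± 13.4 CPM in the same groups (-1.47 ± 0.21, adjusted p = 0.00206). Which part of each gene was deleted is not stated in the labels, so these reads do not test the deletion itself. Against the telogen label, Krt71, a keratin of the growing hair, averaged 51.3 ± 25.4 CPM in KO control and 514 ± 220 CPM in WT control.

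The delta chain and 3 of the 4 CD3 genes fell after UVB in both genotypes, while the beta chain constant gene Trbc2 rose in both. In KO skin 4 of the 10 genes fell and 3 rose, where 32.3% of all tested genes were called (15.1% lower and 17.2% higher). In WT skin 4 fell and 1 rose, where 18.8% of all tested genes were called (8.6% lower and 10.2% higher). Groups did not overlap for 4 members lower and 2 higher in KO, where 11.5% and 13.6% of all tested genes did so, and for 5 lower and 1 higher in WT, where 13.1% and 15.1% did. The members' median log2 fold change was -0.03 in KO and -0.99 in WT, against -0.02 and -0.03 over all tested genes. No member was called between KO and WT.

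**Figure D1:**
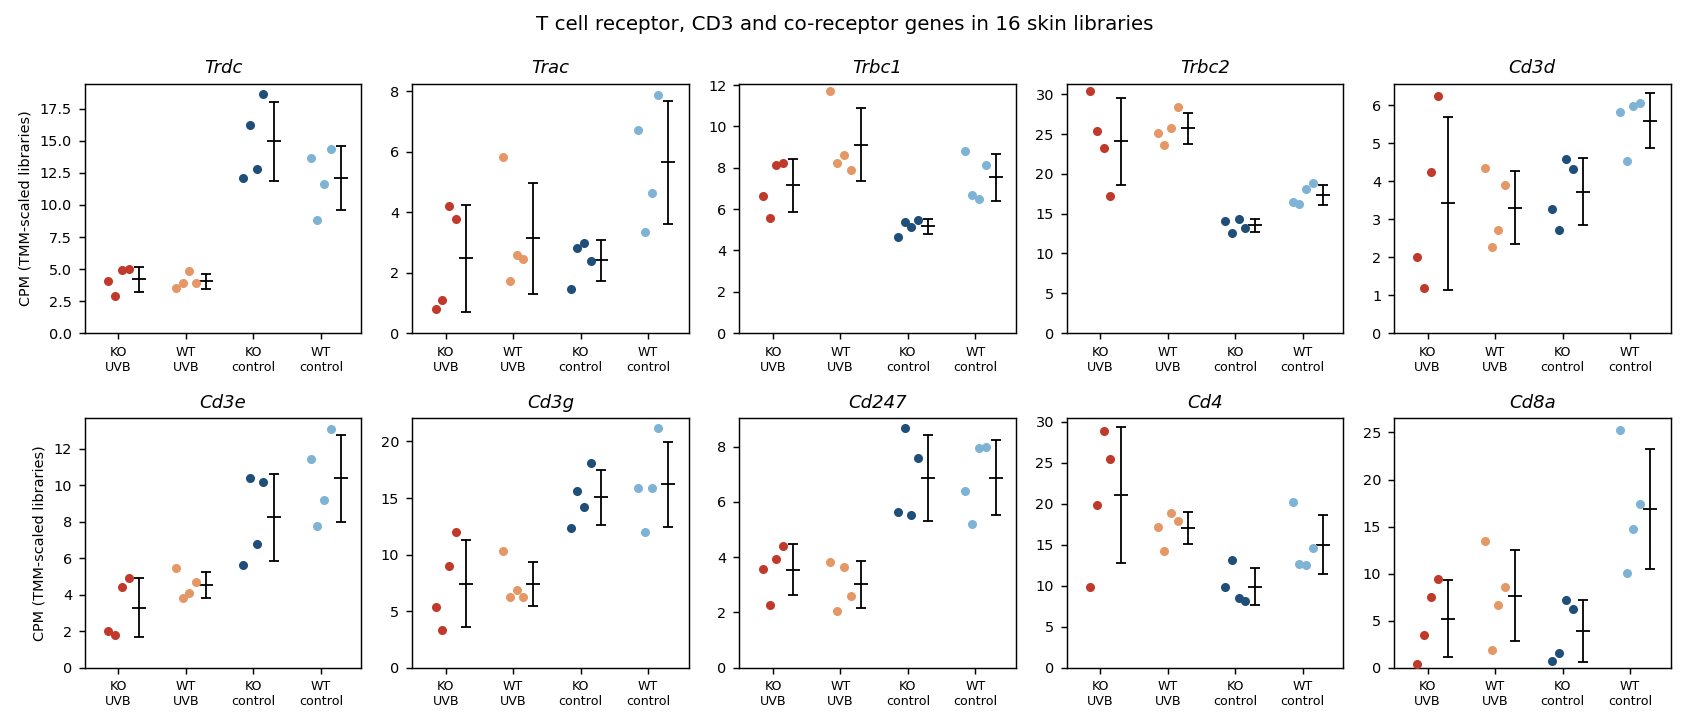
CPM of each of the 10 genes (vertical axis, from 0) in each library, with groups along the horizontal axis; points are libraries and the bar beside them is the mean ± SD of 4 libraries. Trdc lies below 5 CPM in every UVB library and above 8 CPM in every control library, whereas Trac groups overlap with UVB.

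Trdc encodes the constant region of the delta chain and is the marker of gamma-delta T cells. It had 4.03, 2.91, 4.89 and 4.96 CPM in the KO UVB libraries, against 12.1, 16.3, 12.8 and 18.7 CPM in the KO control libraries. In WT skin it had 3.51, 3.94, 4.85 and 3.89 CPM with UVB, against 13.7, 8.80, 11.7 and 14.4 CPM without. In neither genotype did a UVB library reach the lowest control. Its fold change of -1.83 ± 0.20 in KO (adjusted p = 2.72e-05, 3.55-fold lower) and of -1.59 ± 0.20 in WT (adjusted p = 8.05e-05, 3.00-fold lower) was the most negative among the members. The interaction, the UVB response in KO minus that in WT, was -0.24 ± 0.28 (adjusted p = 0.752). In bulk skin, fewer cells of a type and less RNA per cell cannot be told apart. The share of RNA from the epidermis also moved, and its part in these falls was not tested: 5 keratinocyte genes summed to 16002 to 54407 CPM in KO UVB, against 7443 to 12167 CPM in KO control, and 24475 to 32149 CPM in WT UVB, against 5794 to 8994 CPM in WT control, with 4 of the 5 called higher in each genotype. All 12 genes of the growing hair follicle were called lower with UVB in each genotype, at 14.6 to 26.6 CPM in sum in KO UVB, against 86.4 to 313 CPM in KO control, and 22.1 to 184 CPM in WT UVB, against 1168 to 2934 CPM in WT control, and their part was not tested either. Among the other marker lists, genes called lower with UVB were 4 of 5 of skeletal muscle in KO and 1 of 5 in WT, 3 of 4 tested of B and plasma cells in WT and 0 in KO, 2 of 5 of fibroblasts in KO and 0 in WT, 2 of 8 of Langerhans and dendritic cells in WT and 0 in KO, and 1 of 6 of mast cells and 1 of 5 of red cells in WT and 0 in KO. Over all tested genes, 15.1% were called lower in KO and 8.6% in WT. The muscle list summed to 6805 to 12935 CPM in KO UVB, against 15795 to 26397 CPM in KO control, and the B and plasma cell list to 47.7 to 87.4 CPM in WT UVB, against 79.1 to 135 CPM in WT control.

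The variable segments of the epidermal receptor carried the same direction. The last 120 coding bases of both, from the GENCODE M21 transcripts (GRCm38), are printed to show which segments were counted, with the codon of the conserved second cysteine in capitals.
Tcrg-V5 (chromosome 13): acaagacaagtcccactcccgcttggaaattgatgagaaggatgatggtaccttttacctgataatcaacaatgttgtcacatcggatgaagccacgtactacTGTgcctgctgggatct
Trdv4 (chromosome 14): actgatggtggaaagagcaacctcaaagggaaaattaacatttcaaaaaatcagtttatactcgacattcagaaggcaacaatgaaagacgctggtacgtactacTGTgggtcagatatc
Trdv4 had 0.697, 1.20, 1.38 and 1.09 CPM in KO UVB libraries, against 2.82, 3.69, 2.02 and 5.38 CPM in KO control libraries. It fell by 1.66 on the log2 scale in KO (SE 0.33, adjusted p = 0.00168) and by 1.23 in WT (SE 0.32, adjusted p = 0.015), without overlap in either. Tcrg-V5 had 0.299, 0.0571, 0.508 and 0.0911 CPM in KO UVB libraries, against 1.22, 1.70, 1.60 and 1.05 CPM in KO control libraries. In WT it had 0.600, 0.711, 0.485 and 0.778 CPM with UVB, against 1.03, 0.620, 1.22 and 1.30 CPM without. It fell in KO (-2.49 ± 0.43, adjusted p = 0.000631) and was not called in WT (-0.71 ± 0.38, adjusted p = 0.205), and the interaction was not called either (-1.77 ± 0.58, adjusted p = 0.237). These are 1 to 40 reads a library.

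The gamma constant genes followed Trdc. Tcrg-C1 fell in KO (-1.29 ± 0.24, adjusted p = 0.00108) and in WT (-1.32 ± 0.24, adjusted p = 0.00141). Tcrg-C4 also fell in both, by 0.99 in KO (adjusted p = 0.0118) and by 1.14 in WT (adjusted p = 0.00975). Tcrg-C2 fell in WT (-1.54 ± 0.34, adjusted p = 0.00556) but was not called in KO (-0.37 ± 0.32, adjusted p = 0.406), and the interaction was not called (1.17 ± 0.47, adjusted p = 0.309). Several gamma constant genes are related copies, and how their reads were split in the counting was not tested. Of the 26 gamma-delta receptor genes and segments in the files, 7 were tested, and 5 of those fell in each genotype and none rose. Among all tested genes, 15.1% were called lower in KO and 8.6% in WT. Another variable segment, Trgv2, was not called in KO (-0.39 ± 0.52, adjusted p = 0.472) or WT (-1.50 ± 0.61, adjusted p = 0.098). Tcrg-V6 marks another gamma-delta population of mouse skin and had too few reads to be tested. It had 29 reads over the KO UVB libraries, 8 over WT UVB, 13 over KO control and 26 over WT control. In the same order of groups, Tcrg-V1 had 2, 5, 27 and 21 reads, Tcrg-V4 13, 10, 13 and 15, and Trdv5 13, 7, 15 and 22. These were not tested either. Fewer reads with UVB in both genotypes were thus seen for Tcrg-V1 as well as for Tcrg-V5 and Trdv4.

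Alpha chain reads did not pass the test in either genotype. Trac, the constant region of the alpha chain and the marker of alpha-beta T cells, had 0.796, 1.08, 4.20 and 3.78 CPM in KO UVB libraries, against 1.46, 2.80, 2.98 and 2.38 CPM in KO control libraries. With UVB in KO it was low in libraries 1 and 2 and high in 3 and 4, on both sides of the controls. In WT it had 5.81, 1.71, 2.57 and 2.44 CPM with UVB, against 6.70, 3.35, 4.63 and 7.89 CPM without. The change was 0.05 ± 0.50 in KO (adjusted p = 0.949; 95% interval -0.92 to 1.03) and -0.85 ± 0.48 in WT (adjusted p = 0.228; 95% interval -1.78 to 0.08), so a fall in WT as deep as that of Trdc lies inside the interval. limma voom called Trac lower in WT (-1.05, adjusted p = 0.033). With KO UVB libraries 3 and 4 left out, the value in KO was -1.35 (adjusted p = 0.069). In that group these 2 libraries had higher CPM than libraries 1 and 2 for every member except Trbc2. Leaving them out therefore lowers the KO UVB level of those members by choice, and only libraries 1 and 2 remain.

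Both beta chain constant genes are highly alike, which limits their counts. Over 518 coding bases they differ at 23 (95.6% identity), with 1 difference before base 376 and a longest identical stretch of 259 bases. The untranslated bases of the transcripts (737 bases in all for Trbc1 and 692 for Trbc2) were not compared. Bases 376 to 518 of each coding sequence (GENCODE M21, GRCm38, chromosome 6) hold 22 of the 23 coding differences, shown in capitals.
Trbc1: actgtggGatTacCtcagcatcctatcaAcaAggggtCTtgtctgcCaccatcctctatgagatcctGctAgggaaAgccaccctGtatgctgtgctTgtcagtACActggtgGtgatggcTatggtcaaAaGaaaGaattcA
Trbc2: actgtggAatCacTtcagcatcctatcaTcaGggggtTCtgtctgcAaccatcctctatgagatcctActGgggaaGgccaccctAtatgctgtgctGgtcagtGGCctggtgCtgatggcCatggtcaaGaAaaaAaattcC
The files list 0 multimapping reads in every library, so reads that match both genes equally well are not in these counts.

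Trbc2 had 30.5, 25.4, 23.3 and 17.2 CPM in KO UVB libraries, against 14.1, 12.5, 14.3 and 13.2 CPM in KO control libraries. In WT it had 25.1, 23.7, 25.8 and 28.4 CPM with UVB, against 16.4, 16.2, 18.0 and 18.9 CPM without. It rose 1.78-fold in KO (0.83 ± 0.13, adjusted p = 0.000386) and 1.48-fold in WT (0.57 ± 0.13, adjusted p = 0.0075), without overlap in either genotype. Within KO UVB its order of libraries ran against that of Trac, with the highest value in library 1 and the lowest in library 4. Trbc1 averaged 7.14 ± 1.27 CPM in KO UVB and 5.16 ± 0.37 CPM in KO control (0.47 ± 0.16, adjusted p = 0.0348), and this call ended under several settings, among them without KO UVB library 3 (adjusted p = 0.0898), KO UVB library 4 (0.0665) or KO control library 1 (0.0653), 2 (0.0591) or 3 (0.0734). In WT it was not called (0.28 ± 0.16, adjusted p = 0.234). None of the 4 tested beta variable or joining segments (Trbj2-7, Trbj1-5, Trbv19 and Trbv3) was called in either genotype.

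**Figure D2:**
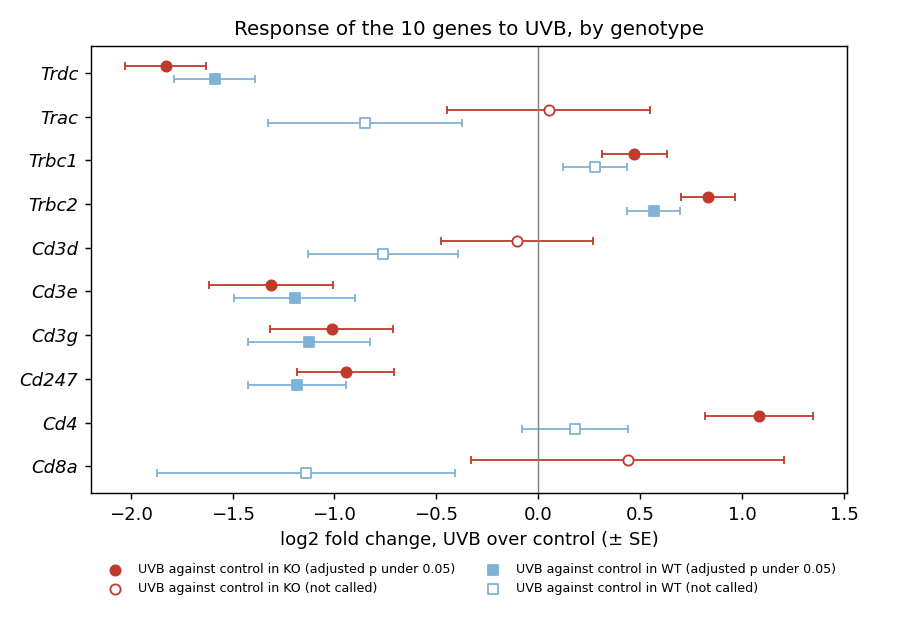
log2 fold change of UVB over control ± SE (horizontal axis) for each gene in KO (circles) and WT (squares); filled symbols have an adjusted p under 0.05. Trdc, Cd3e, Cd3g and Cd247 lie left of 0 and Trbc2 right of 0 in both genotypes.

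Set against each other within a library, delta and alpha reads gave a Trdc to Trac ratio (0.1 CPM added to each) of 4.61, 2.54, 1.16 and 1.31 in KO UVB, against 7.83, 5.65, 4.20 and 7.56 in KO control. In WT it was 0.610, 2.23, 1.85 and 1.57 with UVB, against 2.02, 2.58, 2.49 and 1.81 without. On the log2 scale the ratio was 1.58 lower with UVB in KO (two-sided exact permutation p = 0.0571) and 0.64 lower in WT (exact p = 0.143), neither past 0.05. The smallest p that 4 against 4 libraries allow is 0.0286. With the sum of Trac, Trbc1 and Trbc2 below the line, the groups did not overlap: the log2 ratio averaged -3.00 ± 0.39 in KO UVB and -0.51 ± 0.30 in KO control, and -3.20 ± 0.29 in WT UVB and -1.34 ± 0.15 in WT control (SD, n = 4 each; exact permutation p = 0.0286 for both, 0.0381 adjusted over 4 comparisons). Most reads of that sum are Trbc2 reads. Trdc was lower and Trbc2 higher with UVB without overlap in both genotypes. This ratio therefore largely repeats those 2 results and is not a separate test of delta against alpha-beta chains.

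Variable, diversity and joining segments, which are spliced into the same transcripts but counted apart, were also summed. The gamma-delta sum largely repeats results given above: Trdv4 and Tcrg-V5 hold 764 and 276 of its 1478 reads. The 21 gamma-delta segments summed to 1.64, 2.11, 3.55 and 2.55 CPM in KO UVB libraries, against 5.64, 7.80, 4.85 and 7.82 CPM in KO control libraries, and to 2.91, 2.56, 1.74 and 3.78 CPM in WT UVB, against 6.12, 4.28, 6.90 and 7.08 CPM in WT control. They did not overlap in either genotype (log2 difference -1.39 in KO and -1.15 in WT, exact permutation p = 0.0286 each, 0.114 adjusted over 8 sums). The 229 alpha-beta segments summed to 5.07 ± 2.56 CPM in KO UVB and 4.91 ± 1.14 CPM in KO control (-0.05, exact permutation p = 0.971), and to 5.86 ± 1.81 CPM in WT UVB and 8.00 ± 2.20 CPM in WT control (-0.45, exact permutation p = 0.171; SD, n = 4 each).

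**Figure D3:**
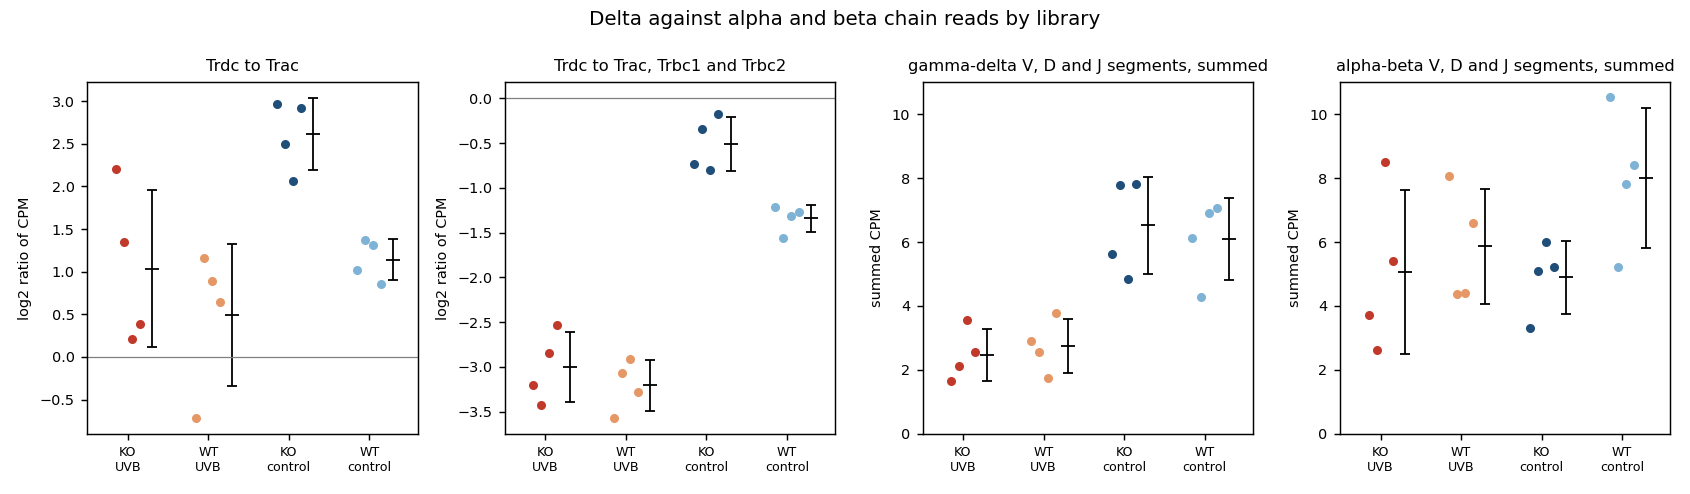
From left to right, log2 ratio of Trdc to Trac, log2 ratio of Trdc to the sum of Trac, Trbc1 and Trbc2, and summed CPM of the 21 gamma-delta and the 229 alpha-beta variable (V), diversity (D) and joining (J) segments, by group; points are libraries and bars the mean ± SD of 4. UVB and control libraries separate for the ratio to the summed chains and for the gamma-delta segments in both genotypes, and overlap for the alpha-beta segments.

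Cd3e, Cd3g and Cd247, the epsilon, gamma and zeta chains, fell in both genotypes without overlap. Cd3e had 2.04, 1.77, 4.43 and 4.92 CPM in KO UVB libraries, against 5.64, 10.4, 6.76 and 10.1 CPM in KO control libraries. In WT it had 5.44, 3.84, 4.12 and 4.72 CPM with UVB, against 11.4, 7.75, 9.18 and 13.1 CPM without. It was 2.48-fold lower in KO (-1.31 ± 0.30, adjusted p = 0.00435) and 2.29-fold lower in WT (-1.19 ± 0.30, adjusted p = 0.0112). Cd3g averaged 7.42 ± 3.85 CPM in KO UVB and 15.1 ± 2.40 CPM in KO control (-1.01 ± 0.30, adjusted p = 0.0183). In WT it averaged 7.44 ± 1.95 CPM with UVB and 16.2 ± 3.75 CPM without (-1.12 ± 0.30, adjusted p = 0.0175). The WT call of Cd3g ended without WT UVB library 2 (adjusted p = 0.0513), WT UVB library 4 (0.0518) or WT control library 4 (0.0549), and the KO call in a fit of the 2 KO groups alone (0.0608).

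Cd247, whose product carries most of the receptor's signalling motifs, averaged 3.55 ± 0.91 CPM in KO UVB and 6.87 ± 1.54 CPM in KO control (-0.95 ± 0.24, adjusted p = 0.0071). In WT it averaged 3.03 ± 0.85 CPM with UVB and 6.88 ± 1.34 CPM without (-1.18 ± 0.24, adjusted p = 0.00319). At this gene 63.0% of the reads lay on the other strand and were not counted, against 0.174% to 4.97% at the other 9. Natural killer cells also express Cd247: of 7 markers of those cells, 1 (Prf1, perforin) fell in each genotype and none rose. Among all tested genes, 15.1% were called lower in KO and 8.6% in WT. The summed level of the 7 markers was 2.79 to 15.1 CPM in KO UVB, against 11.4 to 19.2 CPM in KO control, and 3.30 to 10.5 CPM in WT UVB, against 10.4 to 22.6 CPM in WT control. The part of those cells in the CD3 results was not tested.

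Cd3d, the delta chain of CD3, did not pass. It had 1.99, 1.20, 4.25 and 6.24 CPM in KO UVB libraries, against 3.26, 2.71, 4.58 and 4.33 CPM in KO control libraries (-0.10 ± 0.37, adjusted p = 0.858). The KO UVB libraries lay on both sides of the controls. Libraries 3 and 4 were the highest of that group for Cd3d. With them left out it was called lower in KO (-1.20, adjusted p = 0.0113), a direction that this choice favours. In WT it averaged 3.30 ± 0.97 CPM with UVB and 5.59 ± 0.72 CPM without, with no overlap but no call (-0.76 ± 0.37, adjusted p = 0.163). limma voom called it lower in both genotypes (adjusted p = 0.0229 in KO and 0.0365 in WT), as did a fit of the 2 WT groups alone in WT (0.0238).

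Promoters of the CD3 genes are printed because 3 of the 4 moved together: RefSeq windows of 300 bases (GRCm38.p6), reaching from upstream of the start to just inside the gene, on the gene's strand. Capitals mark 2 motifs chosen after reading the sequences, ACTTCC (or GGAAGT on the other strand), a form of the ETS factor core, and CACCTG (or CAGGTG), an E-box. No match of one overlaps a match of the other in these windows.
Cd3e, chr9:45009562-45009861, minus strand: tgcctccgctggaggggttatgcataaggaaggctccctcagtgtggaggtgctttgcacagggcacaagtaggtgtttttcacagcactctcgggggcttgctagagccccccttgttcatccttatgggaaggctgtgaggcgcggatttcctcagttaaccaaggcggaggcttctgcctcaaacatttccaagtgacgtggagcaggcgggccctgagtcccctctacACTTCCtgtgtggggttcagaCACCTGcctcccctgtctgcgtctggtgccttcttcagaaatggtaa
Cd3g, chr9:44980382-44980681, minus strand: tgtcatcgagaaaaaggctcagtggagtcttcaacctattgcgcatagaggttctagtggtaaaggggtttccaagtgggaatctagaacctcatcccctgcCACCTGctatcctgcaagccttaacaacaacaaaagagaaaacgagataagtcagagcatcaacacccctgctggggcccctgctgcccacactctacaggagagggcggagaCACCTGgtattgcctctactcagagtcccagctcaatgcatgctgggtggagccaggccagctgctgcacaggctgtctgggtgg
Cd247, chr1:165788431-165788730, plus strand: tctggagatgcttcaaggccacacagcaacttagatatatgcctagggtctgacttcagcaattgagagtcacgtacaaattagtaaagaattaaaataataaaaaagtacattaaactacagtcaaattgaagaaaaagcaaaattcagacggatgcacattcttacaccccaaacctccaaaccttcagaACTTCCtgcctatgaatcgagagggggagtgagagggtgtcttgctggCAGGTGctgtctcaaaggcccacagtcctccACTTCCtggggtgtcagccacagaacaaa
Cd3d, chr9:44981536-44981835, plus strand: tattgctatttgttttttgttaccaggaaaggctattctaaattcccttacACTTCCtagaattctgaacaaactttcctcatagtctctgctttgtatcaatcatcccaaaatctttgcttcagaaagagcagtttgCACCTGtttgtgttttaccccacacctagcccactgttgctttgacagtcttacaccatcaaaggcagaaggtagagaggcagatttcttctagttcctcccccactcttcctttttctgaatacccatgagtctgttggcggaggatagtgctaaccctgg
All 4 windows hold a CACCTG match, and 20.2% of 32851 promoter windows of that length do. The ETS-type motif is in those of Cd3e, Cd247 and Cd3d, and in 23.8% of all windows. The window of Cd8a, another member, holds 0 matches of either motif. As the motifs were chosen from the 4 windows, these shares do not test enrichment. Cd3d and Cd3g are neighbours with 0 protein-coding genes between them. A match is a description of these letters and not a binding site.

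The co-receptors went their own ways. Cd4 had 9.90, 19.9, 28.9 and 25.4 CPM in KO UVB libraries, against 9.82, 13.2, 8.47 and 8.15 CPM in KO control libraries. Library 1 of KO UVB lay among the controls and the other 3 above them. Cd4 rose 2.12-fold in KO (1.08 ± 0.26, adjusted p = 0.00602) and was not called in WT, where it averaged 17.02 ± 1.95 CPM with UVB and 14.999 ± 3.597 CPM without (0.18 ± 0.26, adjusted p = 0.662). The interaction was not called (0.90 ± 0.37, adjusted p = 0.32). Without KO UVB libraries 3 and 4, the highest of that group for Cd4, the KO call ended (0.58, adjusted p = 0.109).

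Some macrophages and dendritic cells of mice also carry CD4. None of 9 macrophage and monocyte markers and none of 8 Langerhans and dendritic cell markers was called in KO with UVB. In that comparison 32.3% of all tested genes were called. Of the macrophage list, Csf1r, which encodes a growth factor receptor, had 243, 372, 479 and 403 CPM in KO UVB libraries, against 436, 445, 308 and 284 CPM in KO control libraries, and was not called (0.02 ± 0.22, adjusted p = 0.946). Within KO UVB, Cd4, Csf1r and Trac share 1 order of libraries, lowest in 1, then 2, then 4 and highest in 3, and Csf1r was singled out after its values were seen. The macrophage list summed to 1492 to 3067 CPM in KO UVB, against 1394 to 2556 CPM in KO control, and the dendritic list to 394 to 1183 CPM and 563 to 872 CPM in the same groups. Their part in the Cd4 result was not tested. Of 6 neutrophil markers, 5 were tested and all 5 rose in KO, and 1 rose in WT. Over all tested genes, 17.2% were called higher in KO and 10.2% in WT. Cd4 lies on chromosome 6 with Tnfrsf1a, with 21 protein-coding genes between them in GENCODE M21.

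Cd8a, the co-receptor chain of cytotoxic T cells, had 0.398, 3.48, 7.52 and 9.47 CPM in KO UVB libraries, against 0.729, 1.53, 7.24 and 6.21 CPM in KO control libraries. In WT it had 13.5, 1.85, 6.69 and 8.61 CPM with UVB, against 25.3, 10.04, 14.7 and 17.4 CPM without. It was not called with UVB in KO (0.44 ± 0.77, adjusted p = 0.697) or in WT (-1.14 ± 0.73, adjusted p = 0.293), and libraries of 1 group spanned more than 10-fold in KO UVB. Its partner chain Cd8b1 had 0.0498, 0.856, 2.54 and 2.60 CPM in KO UVB libraries and was not called in either genotype.

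Without UVB, 0 members were called between KO and WT by edgeR, where 1.69% of all tested genes were called. At an unadjusted p under 0.05 it was 5 of 10, against 10.9% of all tested genes, and DESeq2 and limma voom also called 0 members, where they called 2.58% and 3.37% of all genes. The KO control libraries lay below all WT control libraries for Trac, Trbc1, Trbc2 and Cd8a, where 4.63% of all tested genes did so. The changes were -1.23 ± 0.48 for Trac (adjusted p = 0.323), -0.55 ± 0.16 for Trbc1 (0.131), -0.36 ± 0.13 for Trbc2 (0.272) and -2.12 ± 0.77 for Cd8a (0.265). Trdc went the other way in value and did not pass (0.30 ± 0.19, adjusted p = 0.639), and the 4 CD3 genes lay between -0.60 and -0.01. The log2 Trdc to Trac ratio averaged 2.61 ± 0.42 in KO control and 1.14 ± 0.24 in WT control (SD, n = 4 each), without overlap (exact permutation p = 0.0286, 0.114 adjusted over 4 comparisons). With the sum of Trac, Trbc1 and Trbc2 below the line, the log2 ratio was 0.83 higher in KO control, without overlap (exact permutation p = 0.0286, 0.0381 adjusted over 4 comparisons). As Trac, Trbc1 and Trbc2 each lay below all WT control libraries, their sum had to do so too. This ratio therefore largely repeats the values of members that were not called, and is not a separate test.

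Other lists moved in the same comparison, and their part was not tested. Of 12 genes of the growing hair follicle, 9 were lower in KO control, at 86.4 to 313 CPM in sum against 1168 to 2934 CPM in WT control. Of 4 tested B and plasma cell markers, Igkc (-2.59 ± 0.58, adjusted p = 0.0315) and Jchain (-2.85 ± 0.59, adjusted p = 0.0188) were lower. Over all tested genes, 1.28% were called lower in this comparison. The B cell marker Ms4a1 averaged 0.106 CPM in KO control and 0.0602 CPM in WT control. Of 7 lymph node genes, 4 were tested and 0 were called between KO and WT without UVB, where 1.69% of all tested genes were called. Of the others, Cr2 and Glycam1 averaged at most 0.0644 CPM in any group. With UVB, 2 of the 4 tested were called higher in KO, among them Ccr7 (1.05 ± 0.37, adjusted p = 0.0397), a homing receptor gene of lymphocytes. The chemokine genes Ccl21a (-0.56 ± 0.19, adjusted p = 0.047) and Cxcl13 (-3.84 ± 0.67, adjusted p = 0.00124) were lower with UVB in WT. Over all tested genes, 17.2% were called higher with UVB in KO and 8.6% lower in WT.

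With UVB, 0 members were called between KO and WT by edgeR, where 0.856% of all tested genes were called; 1 had an unadjusted p under 0.05, against 16.3% of all, and DESeq2 and limma voom called 0, where they called 3.75% and 6.24% of all genes. Values ran from -0.54 ± 0.75 for Cd8a to 0.31 ± 0.26 for Cd4. The interaction was called for 0 members, where 0.0228% of all tested genes were called by edgeR, 1.21% by DESeq2 and 2.5% by limma voom; both of those also called 0 members, and Cd4 alone had an unadjusted p under 0.05, against 12.8% of all tested genes. The interaction for Trbc2 was 0.27 ± 0.19 (adjusted p = 0.57), for Trac 0.90 ± 0.69 (0.61) and for Cd8a 1.58 ± 1.06 (0.553).

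Genes of the receptor's signalling path gave mixed calls. Of 25, 24 were tested, and 1 rose and 1 fell in KO while 4 fell and none rose in WT, with a median of -0.16 in KO and -0.67 in WT. Among all tested genes, 32.3% were called in KO and 18.8% in WT. Zap70, the kinase that binds the phosphorylated CD3 chains, averaged 2.46 ± 0.87 CPM in KO UVB and 4.45 ± 0.94 CPM in KO control (-0.84 ± 0.25, adjusted p = 0.0185), and 2.68 ± 0.58 CPM in WT UVB and 6.52 ± 1.35 CPM in WT control (-1.28 ± 0.25, adjusted p = 0.00227). Cd5, a damper of receptor signals, rose in KO (0.89 ± 0.22, adjusted p = 0.00562) and was not called in WT (0.49 ± 0.21, adjusted p = 0.118). Trat1 fell in WT, by 1.17 on the log2 scale.

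Genes linked to dendritic epidermal T cells were called in 2 of 10 cases in each genotype. Of all tested genes, 32.3% were called in KO and 18.8% in WT. Cd7 fell in KO (-1.05 ± 0.34, adjusted p = 0.028). Jaml, a costimulatory receptor of these cells, rose in KO (0.60 ± 0.20, adjusted p = 0.0359). Without UVB it was lower in KO control than in WT control (-0.98 ± 0.20, adjusted p = 0.0208). In WT, Il2rb, a chain of the interleukin-2 and interleukin-15 receptors, fell (-1.12 ± 0.36, adjusted p = 0.0421), as did the chemokine receptor gene Ccr10 (-2.30 ± 0.62, adjusted p = 0.0176). Gzmb, granzyme B, was not called in either.

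Ligands of the receptor NKG2D were also listed. H60c, a ligand of this activating receptor of gamma-delta T cells, had 132, 98.2, 49.0 and 50.5 CPM in KO UVB libraries, against 19.6, 11.1, 11.98 and 18.5 CPM in KO control libraries. In WT it had 61.3, 78.1, 79.0 and 81.2 CPM with UVB, against 8.54, 10.2, 15.4 and 8.69 CPM without. It rose by 2.43 ± 0.31 in KO (adjusted p = 8.78e-05) and 2.80 ± 0.32 in WT (adjusted p = 4.31e-05). Of 9 NKG2D ligand genes, 5 were in the files and 2 were tested, and the other, Ulbp1, rose in KO (0.66 ± 0.22, adjusted p = 0.0324) and was not called in WT (0.51 ± 0.22, adjusted p = 0.122).

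The Skint genes, of which Skint1 is known to be needed for the development of dendritic epidermal T cells, were called lower in 4 of 11 cases in KO and 1 of 11 in WT. Across all tested genes, 15.1% were called lower and 17.2% higher in KO, and 8.6% lower and 10.2% higher in WT. Skint7 fell in both (-2.87 ± 0.37 in KO and -2.05 ± 0.36 in WT), and Skint5, Skint8 and Skint10 fell in KO. Skint1 was not called (0.19 ± 0.21 in KO and 0.24 ± 0.21 in WT). Of 13 genes for signals that attract or maintain T cells, 12 were tested, of which 3 rose and 1 fell in KO and 1 rose and 1 fell in WT. The cytokine gene Il18 rose in both genotypes (1.25 ± 0.15 in KO and 1.09 ± 0.15 in WT), Ccl27a, a chemokine that draws T cells to skin, fell in KO (-1.03 ± 0.23, adjusted p = 0.00403), Ccl20 rose in KO (1.43 ± 0.41, adjusted p = 0.0153) and Cxcl12 fell in WT (-0.41 ± 0.11, adjusted p = 0.0183).

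**Figure D4:**
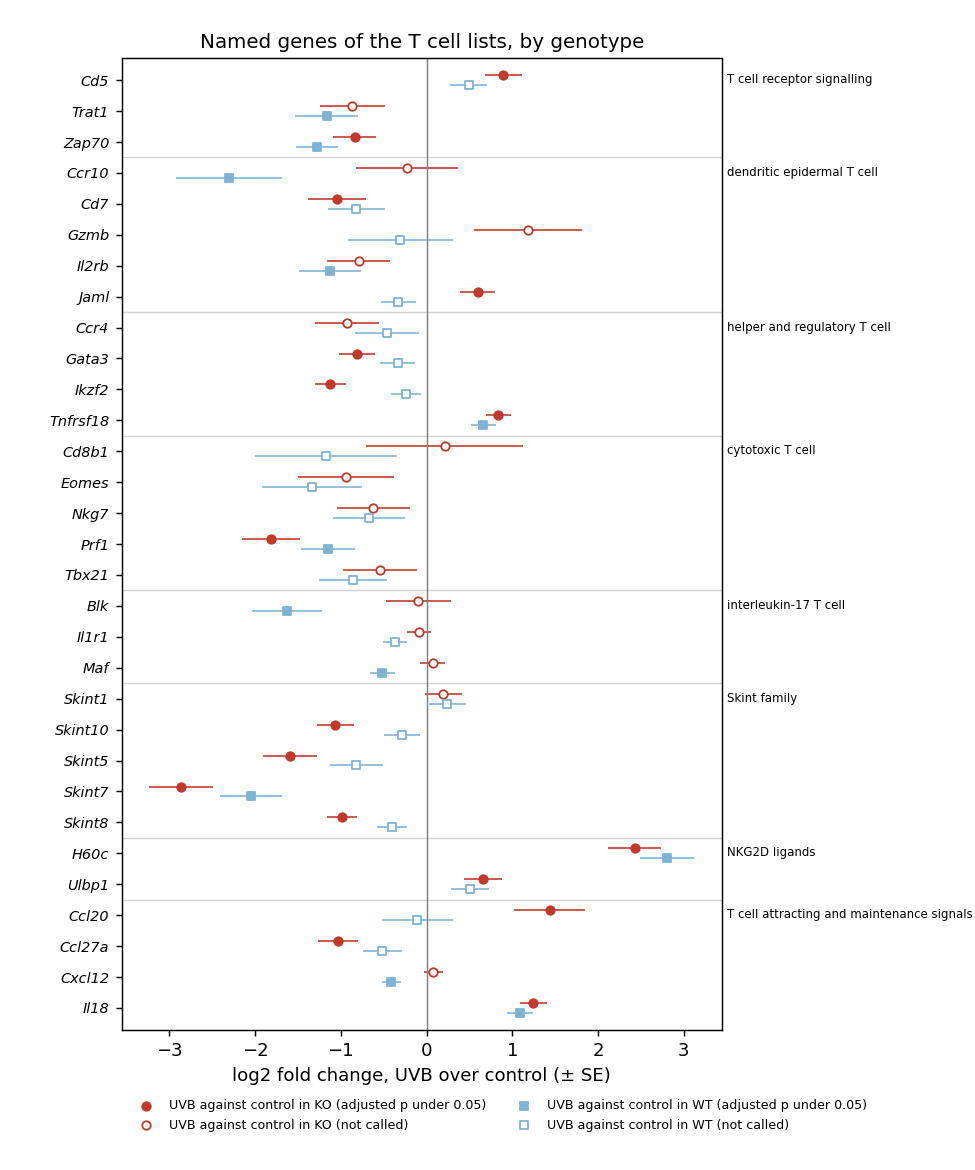
log2 fold change of UVB over control ± SE (horizontal axis) for the named genes of 8 lists, in KO (circles) and WT (squares); filled symbols have an adjusted p under 0.05. H60c and Il18 lie right of 0 and Skint7, Prf1 and Zap70 left of 0 in both genotypes.

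Subset markers were called in few cases. Among all tested genes, 15.1% were called lower and 17.2% higher in KO, and 8.6% lower and 10.2% higher in WT. Among 11 helper and regulatory genes, Tnfrsf18, which regulatory T cells express, rose in both genotypes (0.83 ± 0.15 in KO and 0.66 ± 0.14 in WT), while Ikzf2 (-1.12 ± 0.18) and Gata3 (-0.81 ± 0.21), transcription factor genes also expressed in skin epithelium, fell in KO. Of 8 tested cytotoxic genes only Prf1 fell, in both genotypes (-1.81 ± 0.34 in KO and -1.15 ± 0.32 in WT), and none rose. Of 6 tested interleukin-17 lineage genes, 1 was called lower with UVB in KO, 2 were in WT, and 1 was lower in KO UVB than in WT UVB. Blk (-1.63 ± 0.41, adjusted p = 0.0124) and Maf (-0.52 ± 0.15, adjusted p = 0.0227) fell in WT.

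Likeness of pattern was measured as the root-mean-square difference in centred log2 CPM over the 16 libraries, among 13026 genes. The 5 genes closest to Trdc were Il20ra (0.28), Tcrg-C1 (0.33), Slc24a3 (0.34), Chd5 (0.37) and Csrnp2 (0.37), against a median of 0.91 over those genes. The 5 closest to Trac were Lck (0.27), the kinase that works with CD4 and CD8, H2-Q7 (0.34), Cd6 (0.36), Lat (0.37), the adaptor downstream of Zap70, and Ms4a4b (0.38).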

How the data were processed

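Whole dorsal skin of 16 mouse samples was measured by poly(A) RNA-seq with a directional kit, per the labels' protocols. The authors deposited STAR counts of reads per gene for each sample (build GRCm39, per the submitters' processing notes; neither source names a STAR version or a gene annotation). The reverse-strand counts were used, as 94.7% to 96.1% of gene reads lie on that strand. Symbols came from GENCODE M21 for 52083 of 55359 IDs. Another 17 columns of a combined table were not used. Genes passing filterByExpr (17531) were fitted with edgeR 4.0.16 (TMM, robust quasi-likelihood test, 4 group means, 5 contrasts), with Benjamini-Hochberg adjustment, in R 4.3.3. Ratios and segment sums were compared by exact permutation tests in SciPy 1.17.1. Alternatives were DESeq2 1.42.0, limma 3.58.1 voom, other scaling, filter, strand, groups and left-out libraries. The procedure was tested on simulated data. Named list genes were, per list, the 4 with the smallest adjusted p with UVB in either genotype (mean count of at least 10) and the lowest and highest fold change; likeness was computed for genes with a mean count of at least 50. Further list and marker genes were named where a result touched them. Some list genes that the rule names are not reported here. The members and lists were chosen with earlier results of these data known. Lists held 11 pathway and 12 marker sets. Intervals cover the spread between libraries and no other error.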

Additional observations from a re-analysis of the deposited data

Results flagged for a closer look

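In 2 of 52 groups of 4 libraries examined, 1 library stood farther from the rest than Dixon's test allows, and chance gives about 1 in 20. Cd3d in WT control library 2 was 4.53 CPM, below the other 3 libraries. Cd3g in WT UVB library 1 was 10.3 CPM, above the other 3 libraries.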

How the results depend on the processing

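Of 920 alternative values, 877 kept their direction and side of 0.05. Another 320 values were counted apart, for most members between KO and WT with UVB and for some interactions. Of these 320, 46 reversed and 0 were called, and they are not listed below. Trdc was called lower in both genotypes, and Trbc2 higher, under all 25 alternatives, as were Cd3e and Cd247. Member calls with UVB numbered 5 to 7 in KO and 4 to 7 in WT. Without UVB, KO against WT gave 1 call without KO UVB libraries 3 and 4 (Trbc2). The gamma-delta segment sum changed by -1.58 to -1.22 in KO and -1.31 to -0.95 in WT when 1 library was left out (p = 0.0571, the smallest exact permutation p for 3 against 4). The alpha-beta sum in KO ran from -0.34 to 0.21 with 1 library left out and was 0.0094 with unstranded counts. The log2 Trdc to Trac ratio in KO with UVB passed at 1 CPM added (-1.51). With the sum of alpha and beta genes, which largely repeats the Trdc and Trbc2 results, it passed in both (-2.48 in KO, -1.86 in WT). The ratio to Trac without UVB, KO against WT, ran from 1.36 to 1.66 with 1 library left out (exact permutation p = 0.0571). Members that reversed were not called: Trac with UVB in KO (-0.0244 by library totals, -0.87 by limma voom, -1.35 without KO UVB libraries 3 and 4, -0.32 to 0.34 with 1 library left out), Cd3d in KO (-0.55 to 0.17 with 1 left out), Cd8a in KO (-0.36 by limma voom, -1.03 without KO UVB libraries 3 and 4, -0.00885 to 0.92 with 1 left out), Cd4 with UVB, KO against WT (-0.20 without those libraries), the Trac interaction (-0.51 without those libraries), and without UVB Cd3g (-0.23 to 0.0430) and Cd247 (-0.14 to 0.0842) with 1 left out. The cause was not tested.

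Replicate numbers did not pair libraries: same-numbered libraries of different groups correlated at -0.56 to 0.49, over 0.1 in 5 of 24 pairs, and other pairs at -0.47 to 0.58. With the replicate block, 7 members in KO and 5 in WT stayed the count with UVB, the Trac value in KO was -0.0889, Cd247 without UVB was 0.0356, and the log2 Trdc to Trac ratio without UVB was 1.47 with p = 0.13, the smallest a sign-flip exact permutation test over 4 pairs allows. Low counts limit Trac (16 to 176 reads a library), Cd8a (as few as 8) and the segments.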

Other observations

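Trbc2, which moved apart from Trac, was also matched for likeness, a choice made after its values were seen. The 5 closest genes over the 16 libraries were Prim1 (0.12), a subunit of DNA primase, Coq8b (0.13), Slc16a1 (0.14), a lactate carrier, Slc25a5 (0.15), a mitochondrial ADP/ATP carrier, and Nfe2l3 (0.15). All 5 were higher with UVB in both genotypes, as Trbc2 was, a direction that the choice by likeness fixes. The median difference from Trbc2 over the 13026 genes was 0.45, against 0.91 for Trdc. Trbc2 itself varied less, with a root-mean-square spread of 0.40 against 0.89 for Trdc. The differences from Trbc2 and from Trdc are thus not on a like footing. Prim1 averaged 22.1 ± 3.49 CPM in KO UVB and 13.6 ± 0.13 CPM in KO control, and 22.7 ± 1.74 CPM in WT UVB and 15.4 ± 2.28 CPM in WT control (SD, n = 4 each).

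Germline segments of the alpha-beta receptors were thinly read: 137 of 229 had a read and 27 had at least 20 over all libraries.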
